A study of Mus musculus with 3 samples.

Results

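The regions described here are the read-rich domains of the mouse autosomes, defined as the 2402 bins of 100 kb with the most reads out of 24017 non-empty bins on chromosomes 1 to 19 of build mm9. For each bin the distinct 5′ ends of reads were counted in each of 3 chromatin immunoprecipitation libraries, scaled to the depth of the library and summed over the 3. The scaled unit, CPM, is the number of ends per 1000000 distinct ends of that library. Bins of 1 kb that held 50 or more reads in every library were left out first, which removed 229 of them. The top 10% of bins by the sum are the read-rich bins, and the bottom 10%, also 2402 bins, are called read-poor. The summed level itself therefore chose the bins, and values of it are given as description.

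All 3 libraries came from mouse embryonic stem (ES) cells of the strain C57BL/6, kept without feeder cells on gelatin in medium with serum and ESGRO, a preparation of leukaemia inhibitory factor. The labels name no genetic change and no treatment. The libraries differ in the antibody: an in-house antibody against mouse TET2, a commercial antibody against OGT, and an antibody against H2B S112GlcNAc from another laboratory. Each antibody had 1 library, and an input or IgG library was not used here, so every comparison describes these libraries and has no replicate check. TET2 oxidises methylated cytosine in DNA. OGT transfers a single sugar, N-acetylglucosamine (GlcNAc), to proteins of the nucleus and cytoplasm, and TET2 is known to bind OGT. H2B S112GlcNAc is the form of histone H2B that carries this sugar on a serine near its end. Mouse chromosomes alternate over long stretches between gene-rich, accessible chromatin and gene-poor, compact chromatin, and the density of reads in chromatin libraries is known to follow accessibility and base composition as well as the antibody. Gene positions in the build of the files were not used here, so no gene is assigned to a domain.

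The TET2 library held 3832237 reads at 3297665 distinct ends, the OGT library 2179445 reads at 1878601 ends and the H2B S112GlcNAc library 4647963 reads at 4024073 ends. The bins held 95.1%, 94.5% and 95.1% of these ends. A median bin held 109 TET2, 64 OGT and 138 H2B S112GlcNAc ends, so the OGT values carry the largest counting error.

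The summed level was a continuous distribution with a long upper tail rather than separate classes. Read-rich bins had a median sum of 243 CPM, against 101 over all bins and 52.2 in read-poor bins. The lowest read-rich sum was 2.03 times the median of all bins, 334 read-rich bins (13.9%) reached 3 times that median and 25 (1.04%) reached 5 times. The bins on both sides of the limit were alike in level. The 3 just inside, on chromosome 12 from 80700001, chromosome 11 from 3600001 and chromosome 11 from 68800001, held 219, 203 and 221 TET2 ends. The 3 just outside, on chromosome 11 from 55000001, chromosome 4 from 117300001 and chromosome 12 from 83700001, held 215, 231 and 239.

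Each library was high in the read-rich bins. TET2 had 98 to 2624 ends per read-rich bin (median 278), against 4 to 82 (median 55) in read-poor bins. OGT had 88 to 1545 (median 150), against 2 to 50 (median 32). H2B S112GlcNAc had 127 to 3393 (median 319), against 1 to 100 (median 72). No library's ranges overlapped between the read-rich and the read-poor bins, which the choice of bins nearly ensures. Pooled over bins, the density in read-rich over read-poor bins was 5.52-fold (TET2), 5.06-fold (OGT) and 4.75-fold (H2B S112GlcNAc). The read-rich bins held 22.9% of the TET2 ends counted in bins, 21.6% of the OGT ends and 21.2% of the H2B S112GlcNAc ends.

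**Figure D1:**
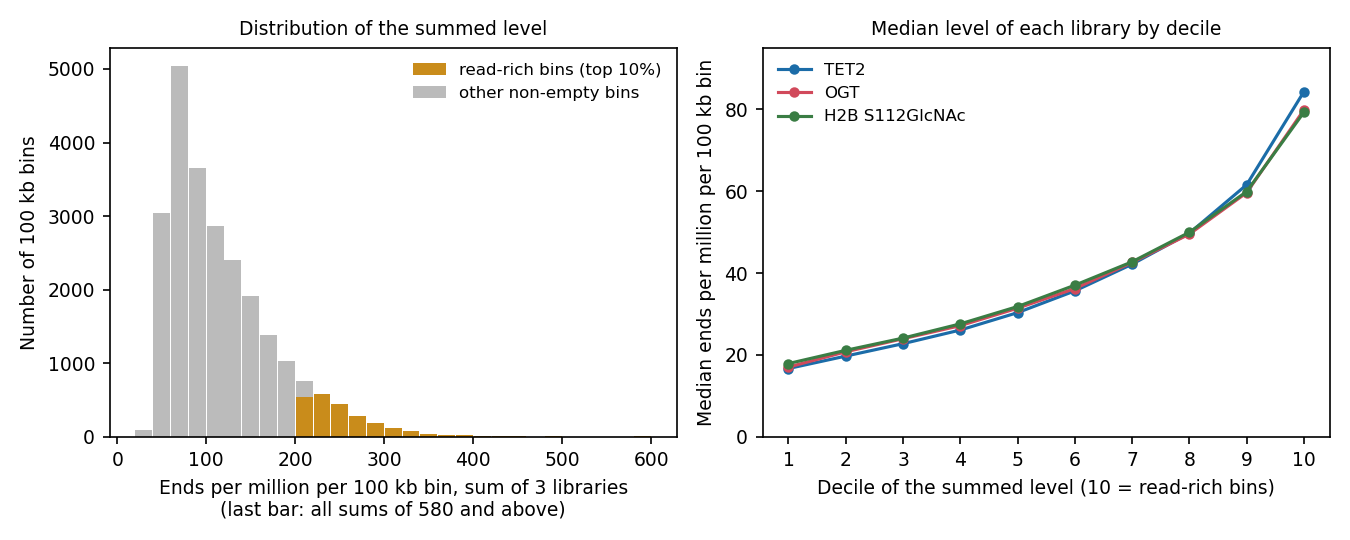
Left, number of 100 kb bins by summed level in CPM (steps of 20), with read-rich bins in orange above the limit and all other non-empty bins in grey. Right, median level of each library in CPM against the decile of the summed level, where decile 10 is the read-rich bins (TET2 84.3, OGT 79.8, H2B S112GlcNAc 79.3) and decile 1 the read-poor bins at 16.7, 17.03 and 17.9.

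The level was also read in a library that took no part in the choice. With bins chosen by OGT and H2B S112GlcNAc together, TET2 had a median of 277 ends in the chosen bins, against 100 in all others, and its pooled density was 2.63-fold higher (95% interval 2.62 to 2.64). With bins chosen by TET2 and H2B S112GlcNAc, OGT had a median of 149 ends, against 59, and was 2.44-fold higher (2.43 to 2.45). With bins chosen by TET2 and OGT, H2B S112GlcNAc had a median of 319 ends, against 128, and was 2.41-fold higher (2.40 to 2.41). The intervals are exact. They hold no error other than that of counting, and PCR copies are not separate molecules.

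Almost every bin chosen by a pair of libraries was high in the remaining library. The library left out reached 1.5 times its own median bin in 2397 of 2402 chosen bins for TET2, in 2399 for OGT and in 2394 for H2B S112GlcNAc, against a background of 25.5%, 23.3% and 23.3% of all bins. The bins chosen by a pair included 94.9% of the read-rich bins without TET2, 95.5% without OGT and 96.0% without H2B S112GlcNAc. Ranked alone, each library placed 91.9%, 89.3% and 91.8% of the read-rich bins in its own top 10%. Of the 2402 read-rich bins 1856 (77.3%) were in the top 10% of all 3 libraries, 443 of 2 libraries and 103 of 1 library. The sum that chose the read-rich bins holds each of these libraries, so high shares in the single-library lists are partly built in. Across read-rich bins the correlation of log2(ends + 1) was 0.87 between TET2 and H2B S112GlcNAc, 0.76 between OGT and H2B S112GlcNAc and 0.71 between TET2 and OGT. Over all 24017 bins the values were 0.96, 0.94 and 0.94, and the points share the local read density of the genome and the coverage of 1 alignment.

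Of the 8 read-rich bins with the highest sums, 7 were high in all 3 libraries and 1 was led by OGT. The highest, chromosome 11 from 3000001 to 3100000, held 2624 TET2, 1545 OGT and 3393 H2B S112GlcNAc ends, a sum 24.3 times the median bin. Its ends were spread out: the 10 fullest kilobases held 22.9%, 22.5% and 23.2% of the TET2, OGT and H2B S112GlcNAc ends, and 1 local peak was called in each library. Chromosome 6 from 47600001 held 1362, 724 and 1315 ends. There an end of any library was found in only 51 of the 100 kilobases. On chromosome 8, the bins from 19900001 and 19700001 held 974 and 840 TET2, 553 and 531 OGT, and 1181 and 1288 H2B S112GlcNAc ends. The touching bins of chromosome 8 from 126100001 and 126000001 held 1117 and 975 TET2, 516 and 498 OGT, and 1052 and 858 H2B S112GlcNAc ends. Chromosome 17 from 3000001 held 756, 465 and 956 ends. In these 7 bins the TET2 to OGT ratio of CPM lay between 0.901 and 1.23. The TET2 to H2B S112GlcNAc ratio ranged more widely, from 0.796 to 1.39, both on chromosome 8, from 19700001 and from 126000001. The OGT to H2B S112GlcNAc ratio lay between 0.883 and 1.24. The OGT-led bin, chromosome 11 from 87800001 to 87900000, held 1123 OGT ends, against 226 TET2 and 258 H2B S112GlcNAc ends, and 92.6% of its OGT ends lay in 10 kilobases.

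A small number of read-rich bins were led by a single library. Being led meant a ratio in CPM of at least 1.5 over both other libraries, with 30 or more ends in the higher library. This was found in 12 read-rich bins for OGT, 2 for TET2 and 0 for H2B S112GlcNAc. Led bins were not counted outside the read-rich bins, so whether they are more frequent among read-rich bins was not tested. In single pairs, OGT exceeded TET2 by 1.5-fold in 12 of 2402 read-rich bins and 400 of 21615 other bins. OGT exceeded H2B S112GlcNAc in 13 and 148. Other bins hold fewer ends, so counting error passes this limit more often there. The OGT-led bins lay on 8 chromosomes and held 185 to 1123 OGT ends (median 320) and 46 OGT local peaks. In the median OGT-led bin 69.9% of the OGT ends lay in the 10 fullest kilobases. Of these 12 bins, 6 were also chosen by TET2 and H2B S112GlcNAc without OGT, and the other 6 were not.

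The lowest TET2 to OGT ratios belonged to such bins. Chromosome 4 from 49600001 held 98 TET2 and 526 OGT ends, with 127 for H2B S112GlcNAc, a TET2 to OGT ratio of 0.106 (0.0847 to 0.132) and an OGT to H2B S112GlcNAc ratio of 8.87 (7.30 to 10.9). Chromosome 7 from 134700001 held 197 TET2, 1003 OGT and 291 H2B S112GlcNAc ends, a TET2 to OGT ratio of 0.112, and was rank 10 by sum. There 5697 OGT reads stood behind the 1003 ends, while 211 TET2 reads stood behind 197 ends. The OGT to H2B S112GlcNAc ratio was highest, 9.32 (8.14 to 10.7), in the chromosome 11 bin from 87800001. In each of these 3 bins the TET2 and H2B S112GlcNAc levels were below the median of the read-rich bins, at 29.7, 59.7 and 68.5 CPM for TET2 and 31.6, 72.3 and 64.1 for H2B S112GlcNAc. OGT stood at 280, 534 and 598 CPM. In the chromosome 4 bin the TET2 and H2B S112GlcNAc levels were also below the medians of all bins, 33.1 and 34.3 CPM.

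Both TET2-led bins lay on chromosome 18. The bin from 7600001 held 780 TET2, 88 OGT and 204 H2B S112GlcNAc ends, with 88.7% of the TET2 ends in 10 kilobases, and its TET2 ratio was 5.05 (4.05 to 6.37) over OGT and 4.67 (3.99 to 5.47) over H2B S112GlcNAc. The bin from 67400001 held 393, 121 and 276 ends and had ratios of 1.85 (1.51 to 2.29) and 1.74 (1.49 to 2.03). Neither was among the bins chosen by OGT and H2B S112GlcNAc. The lowest TET2 to H2B S112GlcNAc ratios were close to the bulk, at 0.732 (0.606 to 0.882) and 0.786 (0.663 to 0.930) on chromosome 12 from 105100001 and 88800001. The lowest OGT to H2B S112GlcNAc ratios were 0.6997 (0.561 to 0.867) on chromosome 5 from 36200001 and 0.702 (0.564 to 0.869) on chromosome 17 from 46100001.

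Across the read-rich bins as a whole, the balance between antibodies was near that of the other bins, with a modest tilt to TET2. The pooled TET2 to H2B S112GlcNAc ratio was 1.08 in read-rich bins, against 0.980 in all other bins, a quotient of 1.10 (95% interval 1.09 to 1.10, normal approximation on the log scale, counting error alone). The TET2 to OGT ratio was 1.06, against 0.991, a quotient of 1.07 (1.07 to 1.08). The OGT to H2B S112GlcNAc ratio was 1.01, against 0.989, a quotient of 1.02 (1.02 to 1.03). When the bins were chosen by the library that is not in the ratio, the quotients were 1.09, 1.08 and 1.01. The median TET2 to H2B S112GlcNAc ratio increased with the deciles, with 0.927 in read-poor bins, 0.956 in decile 5, 1.03 in decile 9 and 1.07 in read-rich bins. The median TET2 to OGT ratio did not do so over the lower deciles: it was 0.977 in read-poor bins, 0.949 in decile 2, 0.969 in decile 5, 1.03 in decile 9 and 1.07 in read-rich bins.

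**Figure D2:**
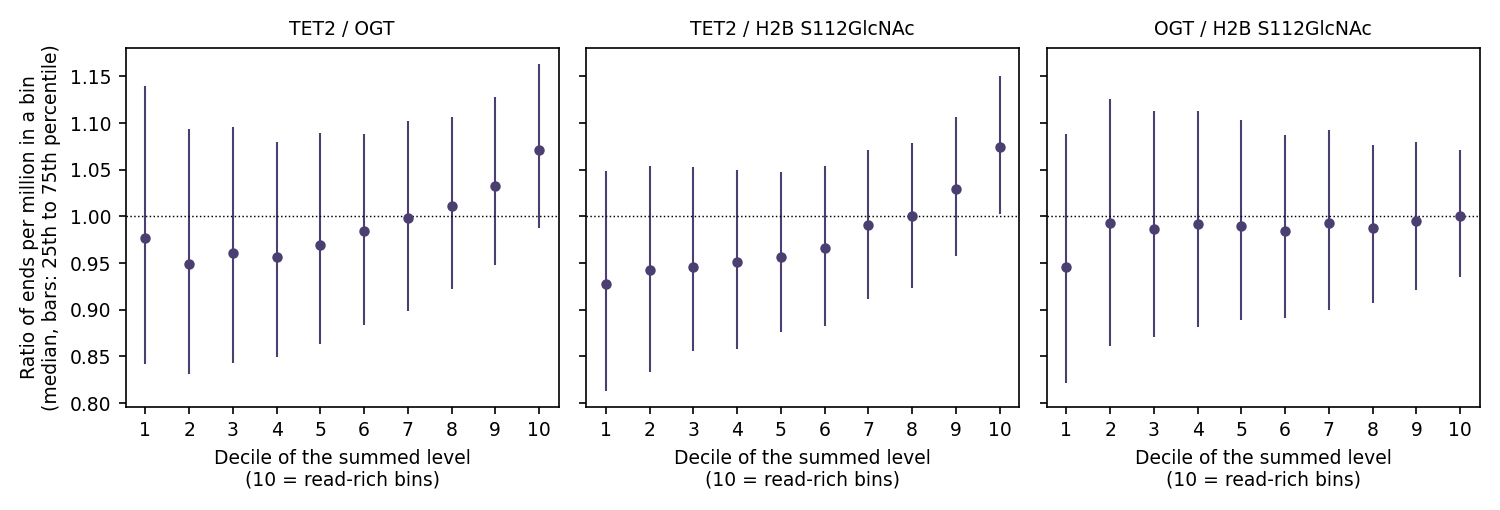
Ratio of CPM between each pair of libraries in single 100 kb bins (points: median, bars: 25th to 75th percentile) against the decile of the summed level. Both ratios with TET2 on top reach their highest medians, 1.07, in the read-rich bins (decile 10), while the OGT to H2B S112GlcNAc median there is 1.0005.

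Single read-rich bins rarely departed from this balance. TET2 exceeded OGT by 1.5-fold or more in 10 read-rich bins, 0.416%, against 0.966% of all bins, and OGT exceeded TET2 in 12, against 1.72%. TET2 exceeded H2B S112GlcNAc in 2, against 0.142%, and H2B S112GlcNAc exceeded TET2 in 0, against 0.987%. OGT exceeded H2B S112GlcNAc in 13, 0.541%, against 0.67% of all bins, and H2B S112GlcNAc exceeded OGT in 0, against 1.27%. Other bins hold fewer ends, so counting error alone passes this limit more often there. The log2 ratio of TET2 to H2B S112GlcNAc had a central spread, on the scale of an SD, of 0.14 over read-rich bins, where counting alone gives 0.12. For TET2 and OGT the spread was 0.17 where counting gives 0.14, and for OGT and H2B S112GlcNAc it was 0.15 where counting gives 0.14.

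Read-rich bins lay next to each other. They formed 780 runs, and 83.97% of them touched another read-rich bin, against 72.8% of read-poor bins touching another read-poor bin and 48.3% to 62.6% in the 8 deciles between, each with as many bins. Runs of at least 10 bins held 809 read-rich bins in 48 runs, against 145 read-poor bins in 13 runs and 0 bins in the other deciles. The 8 deciles between are bounded on both sides, so a neighbour of similar level can fall into the next decile. Their lower shares and lack of long runs therefore depend in part on the cut. Only 8 read-rich bins touched a read-poor bin. Bins 100 kb from a read-rich bin had a median sum 2.27 times that of all bins, and the excess was still 1.92 at 1000 kb and 1.398 at 5000 kb. Around read-poor bins the values at these distances were 0.563, 0.615 and 0.867.

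**Figure D3:**
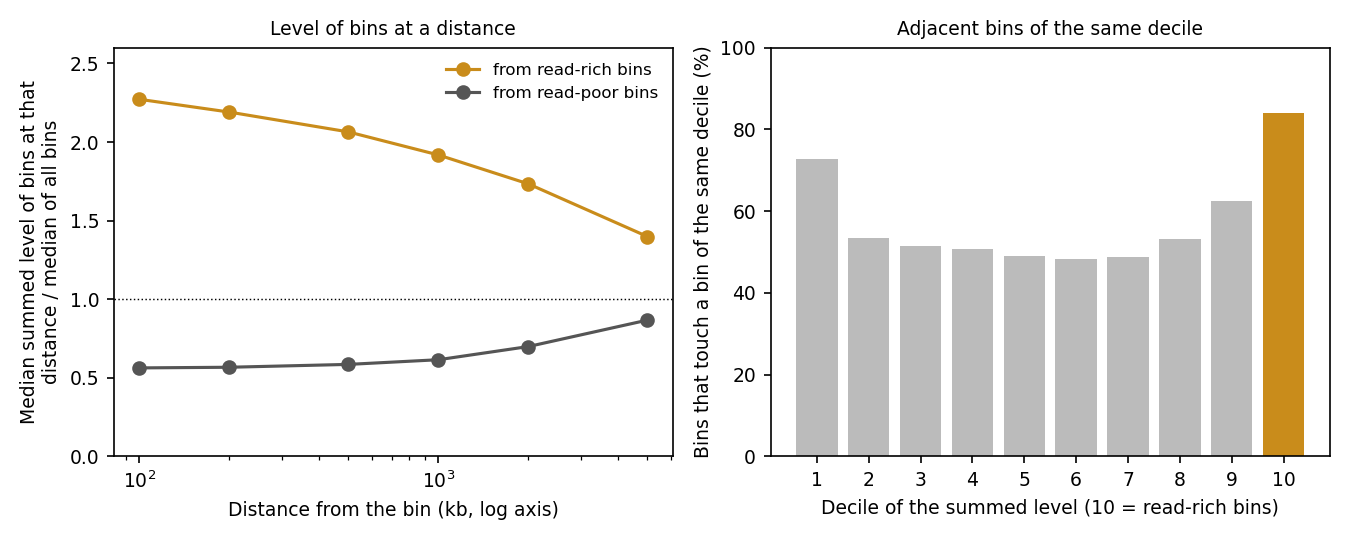
Left, median summed level of the bins at a given distance (kb, log axis) from read-rich and from read-poor bins, divided by the median of all bins. Right, share of the bins of each decile of the summed level that touch a bin of the same decile: the highest bar, 83.97%, is that of the read-rich bins (decile 10).

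Read-rich bins in long runs had higher sums, and were more often high in every library, than those that stood alone. The 385 single bins had a median sum of 221 CPM, the 723 bins in runs of 2 to 4 had 232, the 485 in runs of 5 to 9 had 246 and the 809 in runs of 10 or more had 268. The highest sum of all, however, was a single bin. Chromosome 12 held 183 of the 809 bins in runs of 10 or more and 8 of the 385 single bins. Without it the median sum was 259 CPM in runs of 10 or more and 221 in single bins. Of the single bins 54.0% were in the top 10% of all 3 libraries, against 91.1% of bins in runs of 10 or more, and 54.4% against 89.9% without chromosome 12. OGT local peaks were more frequent in single bins, at 2.31 per Mb, than in runs of 10 or more, at 1.08 per Mb. H2B S112GlcNAc local peaks were also more frequent in single bins, at 2.81 against 2.10 per Mb. The 12 OGT-led bins held 46 OGT local peaks, and their part in the OGT values was not tested. TET2 local peaks stood at 9.82 and 9.52 per Mb. Run length and the sum are linked by the choice of bins, so these values are descriptive.

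The longest runs were on chromosomes 12, 4 and 8. The longest spanned 4200 kb on chromosome 12 from 84700001 to 88900000, with medians of 357 TET2, 199 OGT and 407 H2B S112GlcNAc ends per bin. A run of 4100 kb on chromosome 4 from 137800001 to 141900000 had medians of 281, 155 and 331 ends. A second run of 4100 kb, on chromosome 12 from 110600001 to 114700000, had the highest levels of the 5, with medians of 468 TET2, 259 OGT and 541 H2B S112GlcNAc ends. The run of 3500 kb on chromosome 8 from 121900001 to 125400000 had medians of 312, 165 and 355. The run of 2600 kb on chromosome 12 from 105600001 to 108200000 had 384, 210 and 445. In all 5 runs the 3 pooled ratios between libraries lay between 0.991 and 1.07.

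The level changed by large factors at the edges of some read-rich stretches. The median sums of the 10 bins on each side were compared at 23503 boundaries, and the steps named were chosen after the values were seen. The largest was at 114700001 of chromosome 12, with a median of 525 CPM on the read-rich side, before it, and 72.1 after it. The fall was gradual at the scale of single bins: from 114500001 on, touching bins had 431, 270, 173, 162, 139, 98.1 and 71.7 CPM. The level after it over that before it was 0.135 in TET2, 0.145 in OGT and 0.153 in H2B S112GlcNAc. The next was at 55800001 of chromosome 17, with 315 CPM after it and 66.9 before. At 20700001 of chromosome 7 the median was 273 CPM before and 65.6 after, and at 78900001 of chromosome 10 it was 375 after and 95.4 before. Of the 10 largest steps more than 2 Mb apart, 4 lay on chromosome 7. Each of the 10 had the same direction in all 3 libraries, which the choice of the largest steps in their sum nearly ensures.

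Chromosome 12 from 80 to 115 Mb held 212 of the 220 read-rich bins of that chromosome. Of its 350 bins 60.6% were read-rich and 0 were read-poor, against 1.04% read-rich and 92 read-poor among the 767 bins below 80 Mb. There TET2 had a median of 80.2 CPM, OGT 80.6 and H2B S112GlcNAc 81.3, against 33.1, 34.1 and 34.3 over all bins. The stretch was not raised throughout: from 94 to 99 Mb its 50 bins had a median sum of 89.7 CPM, against 101 over all bins, and 0 of them were read-rich. The limits of this stretch were set after seeing the values. Without an input library the number of DNA copies in these cells was not analysed here, and its part in the chromosome 12 levels, runs and share was not tested. Without chromosome 12 the same rule gave 2284 bins, of which 2182 were among the read-rich bins above. These 2182 are all the read-rich bins of the other chromosomes. The read-rich share of chromosome 12 was above 10%, so leaving it out lowers the limit and this overlap was fixed in advance.

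Chromosomes differed widely in their share of read-rich bins. The share was highest on chromosome 11, where 249 of 1189 bins were read-rich (20.9%, exact 95% interval 18.7 to 23.4), followed by chromosome 12 (18.6%), chromosome 4 (16.05%), chromosome 17 (15.93%) and chromosome 5 (15.86%). The interval of chromosome 12 overlaps those of chromosome 11 and of the 3 that follow it, so this order is not settled by the counts. The share was lowest on chromosome 3, with 32 of 1566 bins (2.04%, 1.402 to 2.87), and was also low on chromosome 13 (2.23%) and chromosome 14 (2.54%). Neighbouring bins are not independent, so the intervals are too narrow. Ranked by a single library, chromosome 11 held 21.0% by TET2, 22.04% by OGT and 20.0% by H2B S112GlcNAc, and chromosome 3 held 1.92%, 2.11% and 1.60%.

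A chromosome with many read-rich bins did not simply have few read-poor ones. Chromosome 15 was above the average of 10% in both, with 13.3% read-rich and 14.3% read-poor bins, and chromosome 13 below it in both, with 2.23% and 5.57%. Over the 19 chromosomes the correlation between both shares was -0.199 (Pearson) and -0.153 (Spearman). The share of read-rich bins was set beside the number of protein-coding genes per bin of the chromosome, taken from the RefSeq annotation of GRCm38 by chromosome name alone. Pearson's r was 0.553 and Spearman's rho 0.540 over 19 chromosomes, and 0.724 and 0.777 over the 18 without chromosome 12. Chromosome 12 had 0.575 genes per bin, the lowest of all, and chromosomes 7 and 11 had 1.42 and 1.35. It was chromosome 12 that was left out after its values were seen, and dropping a point so far from the trend raises both correlations. These are descriptions, and the points share the length of each chromosome.

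**Figure D4:**
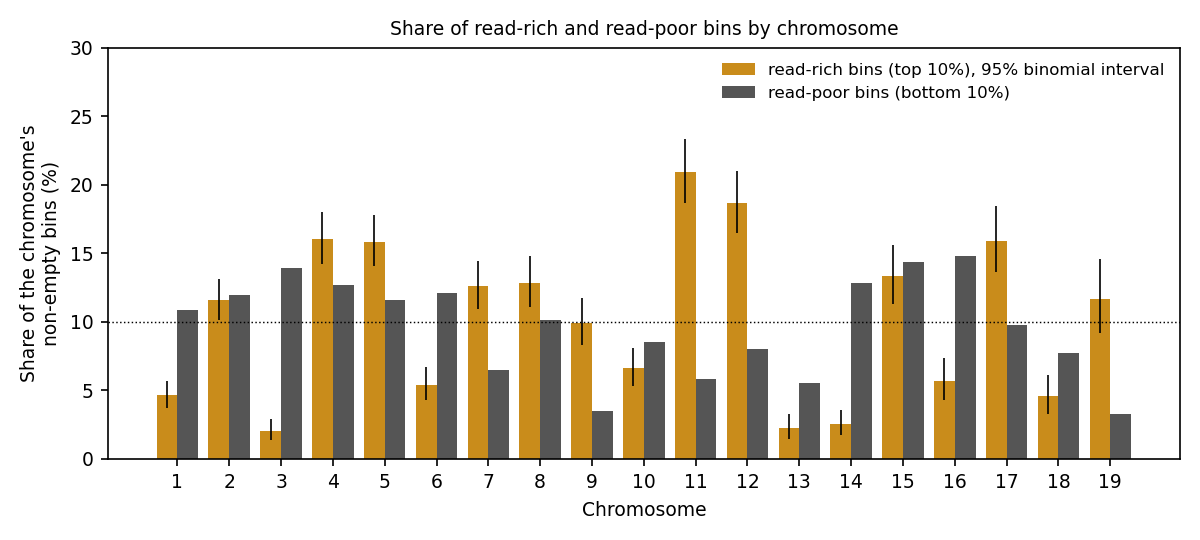
Share of the non-empty 100 kb bins of each chromosome that are read-rich (orange, with exact 95% binomial intervals) and read-poor (grey), in percent; the dotted line marks 10%. Chromosomes 11 and 12 have the highest read-rich shares, 20.9% and 18.6%, and chromosome 3 the lowest, 2.04%.

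Along the chromosomes, read-rich bins were most frequent towards the far end. With each chromosome cut into 5 parts of equal length from the low coordinates, where the mouse centromere lies, to the high ones, the shares of read-rich bins were 6.95%, 4.96%, 7.11%, 10.5% and 20.4%. Without chromosome 12 the last value was 18.6%. The last part led on 9 of the 19 chromosomes. Read-poor bins made up 5.04% of the last part and 9.42% to 12.45% of the others.

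Local peaks are windows of 500 bp in which a library has at least 4 times its background and a Poisson tail under 0.01 after adjustment, merged where they touch. The background is the largest of 3 means, over the genome, over 10 kb and over 50 kb. Where the surroundings are sparser than the genome mean, a window therefore needs more than 4 times its surrounding density. The part of this rule in the frequencies was not tested. Read-rich bins held more local peaks in each library. The frequency was 9.87 per Mb in read-rich bins, against 3.21 in all other bins, for TET2, 1.35 against 0.600 for OGT and 2.11 against 0.952 for H2B S112GlcNAc. The folds were 3.07 (95% interval 2.93 to 3.22), 2.25 (1.99 to 2.54) and 2.22 (2.01 to 2.45). At least 1 TET2 peak lay in 1556 read-rich bins (64.8%), against 30.3% of all bins. At least 1 OGT peak lay in 271 (11.3%), against 6.35%, and at least 1 H2B S112GlcNAc peak in 447 (18.6%), against 9.95%. Of the read-rich bins 754 (31.4%) had no peak in any library.

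This excess depended on the limit. In a denser bin a smaller fold passes the Poisson tail. The median fold of the peaks was 7.76 in read-rich bins, against 11.3 in other bins, for TET2, 11.6 against 16.2 for OGT and 7.21 against 9.90 for H2B S112GlcNAc. With an 8-fold limit the frequency was 4.505 per Mb in read-rich bins, against 2.97 in others, for TET2, a fold of 1.52 (1.42 to 1.62). For OGT it was 1.15 against 0.598, a fold of 1.92 (1.68 to 2.19). For H2B S112GlcNAc it turned to 0.741 in read-rich bins, against 0.878 in others, a fold of 0.844 (0.720 to 0.985). Peaks and the summed level come from the same reads, so the peak counts are no independent support for the choice of bins.

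**Figure D5:**
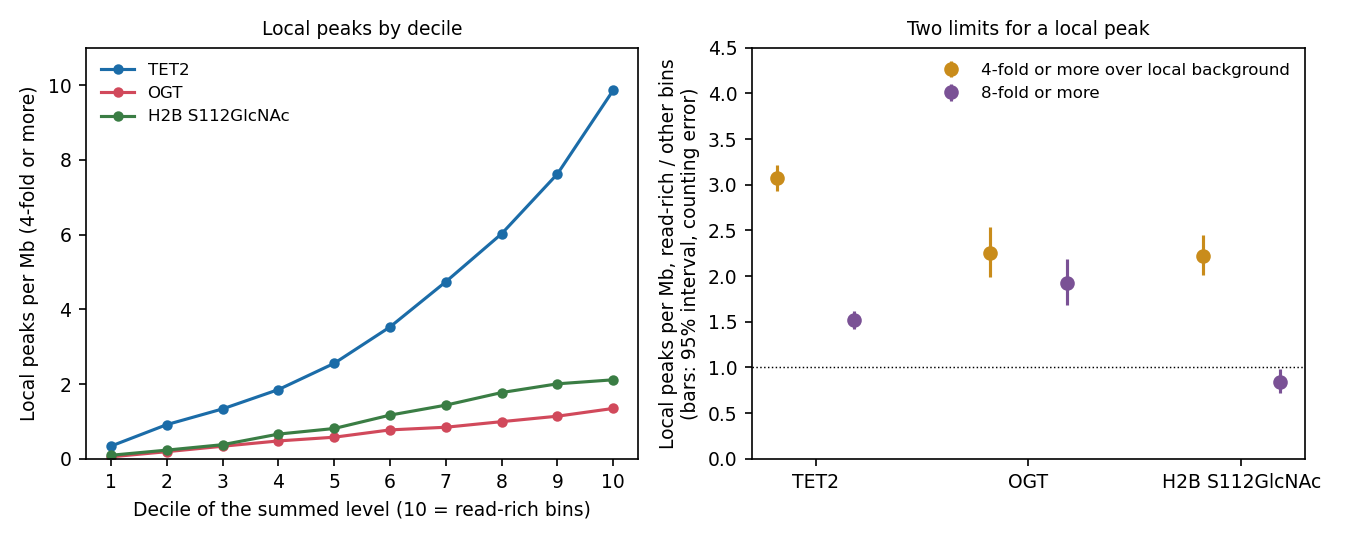
Left, local peaks per Mb called at 4-fold or more in each library against the decile of the summed level; in decile 10, the read-rich bins, TET2 reaches 9.87, OGT 1.35 and H2B S112GlcNAc 2.11. Right, local peaks per Mb in read-rich bins divided by that in all other bins at the 4-fold and the 8-fold limit (bars: exact 95% interval for counting error); the H2B S112GlcNAc value is 2.22 at 4-fold and 0.844 at 8-fold.

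The read-rich bins with the most local peaks differed between libraries. For TET2 they were chromosome 6 from 47700001 with 7 peaks, which touches the second highest bin by sum, and chromosome 3 from 96000001 and chromosome 5 from 125900001 with 5 each. For OGT they were chromosome 14 from 63300001 and chromosome 17 from 56400001 with 7 each, and chromosome 4 from 49600001 with 5. All 3 OGT bins were OGT-led: they held 477, 598 and 526 OGT ends, against 100, 366 and 98 TET2 ends and 127, 386 and 127 H2B S112GlcNAc ends. For H2B S112GlcNAc the highest number was 3, in the bins of chromosome 2 from 17900001 and 71300001 and of chromosome 5 from 15100001. The lists end on ties, since 7 read-rich bins had 5 TET2 peaks, 2 had 5 OGT peaks and 8 had 3 H2B S112GlcNAc peaks.

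Local peaks in read-rich bins were shared between libraries less often than elsewhere when they were TET2 peaks. Of the 2370 TET2 peaks in read-rich bins 7.47% (exact 95% interval 6.44 to 8.60) overlapped an OGT peak and 12.95% (11.6 to 14.4) an H2B S112GlcNAc peak, against 11.3% (10.6 to 12.1) and 17.6% (16.7 to 18.5) of the 6946 in other bins. Of the 324 OGT peaks in read-rich bins 54.6% (49.0 to 60.1) overlapped a TET2 peak, against 60.5% (57.8 to 63.2) elsewhere. Of the 508 H2B S112GlcNAc peaks 60.8% (56.4 to 65.1) did, against 59.3% (57.2 to 61.5). The intervals of the TET2 shares do not overlap between read-rich and other bins, while those of the OGT and the H2B S112GlcNAc shares do. They are exact and cover counting error, and no replicate stands behind them. The overlap was counted at the 4-fold limit alone. TET2 peaks were 3.07-fold as frequent in read-rich as in other bins, OGT peaks 2.25-fold and H2B S112GlcNAc peaks 2.22-fold. Each TET2 peak in read-rich bins therefore had fewer peaks of the other libraries to overlap. TET2 peaks also had a lower median fold in read-rich bins, 7.76, than in other bins, 11.3. The part of either in the lower sharing was not tested.

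Most of the excess reads in read-rich bins lay outside the local peaks that were called. Sites too weak to be called at this depth stay in the remainder, and their part in it was not tested. Leaving out every kilobase touched by a peak of any library removed 1.61% of the kilobases of read-rich bins and 6.91% of their TET2 ends, 5.49% of their OGT ends and 4.09% of their H2B S112GlcNAc ends. In what remained, TET2 had 2.82 ends per kb in read-rich bins, against 1.08 in other bins and 0.538 in read-poor bins. OGT had 1.54, against 0.628 and 0.315, and H2B S112GlcNAc had 3.30, against 1.37 and 0.711. The folds over other bins were 2.62, 2.45 and 2.41, against 2.67, 2.48 and 2.43 with peaks included. The rule applied outside peaks returned 2244 of the 2402 read-rich bins (93.4%).

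Within read-rich bins the ends were spread over nearly all kilobases. The median read-rich bin had an end of any library in 100 of its 100 kilobases, against 72 in the median read-poor bin. Empty kilobases made up 1.01% of read-rich bins and 28.9% of read-poor bins, and an even spread of the ends present would leave 0.0691% and 21.2% empty. Kilobases to which reads cannot be aligned are counted as empty, and their part in the levels was not tested. The 10 fullest kilobases held a median of 27.9% of the TET2 ends, 29.3% of the OGT ends and 23.9% of the H2B S112GlcNAc ends of a read-rich bin. The variance over the mean of the counts per kilobase, which is 1 for an even random spread, stood at 1.99 (TET2), 1.30 (OGT) and 1.51 (H2B S112GlcNAc) in read-rich bins, against 1.21, 1.11 and 1.24 in read-poor bins. This measure grows with depth at a given unevenness. Repeated reads were 6.79%, 8.13% and 5.92% of the reads in read-rich bins, against 5.03%, 4.78% and 4.51% in read-poor bins.

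Ends of opposite strands that face each other across 60 to 250 bp, the spacing of the ends of short fragments of 1 site, were set against pairs 1000 to 2000 bp apart. In read-rich bins the near pairs were 2.10 times as frequent per bp for TET2 and 1.35 times for H2B S112GlcNAc, against 1.97 and 1.47 in other bins. For OGT the value was 2.39, against 1.70. With every read kept instead of distinct ends, the read-rich bins had 3.17 in TET2, 5.63 in OGT and 1.37 in H2B S112GlcNAc, so those of TET2 and OGT moved by over 1.5 times. Outside local peaks the values were lower in read-rich bins than elsewhere in all 3 libraries. They were 1.42 (95% interval 1.42 to 1.43), against 1.502 (1.49 to 1.51) in other bins, for TET2, 1.36 (1.35 to 1.38) against 1.44 (1.42 to 1.45) for OGT and 1.28 (1.27 to 1.28) against 1.36 (1.36 to 1.37) for H2B S112GlcNAc. An end can take part in several pairs, so pairs are not independent and these intervals are too narrow. Read-poor bins had the highest values outside peaks, at 1.78, 1.69 and 1.64.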

How the data were processed

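Each line of the deposited files is an aligned read of 44 bp with its coordinates, its strand and a score, and the score does not vary within a file. That deposited score was not used. According to the submitters' processing notes the build is mm9, and CASAVA 1.4 and Bowtie 0.12.2 are named without a role; their handling of repeated reads and of several matches was not given in the sources used here. In the OGT file chromosomes carry RefSeq identifiers, which were matched to chromosome numbers.

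Reads were placed by their 5′ end, counted once per position and strand, and scaled to the distinct ends of the whole file. Left-out 1 kb bins were found from all reads. Local peaks used ends moved by 100 bp, windows of 500 bp every 250 bp, and as background the largest of 3 means, over the genome, over 10 kb and over 50 kb, without the window and 500 bp on each side. A peak belongs to the bin of its midpoint, and peaks that touch left-out bins were not counted. Intervals for pair frequencies and for quotients of ratios are normal approximations on the log scale, and the others are exact. The choice of bins, ratios, runs, local peaks and pair frequencies were tested on simulated data. NumPy 2.4.6, SciPy 1.17.1 and pandas 2.3.3 were used.

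The members, lists and measures were chosen with earlier results of these data known. CPM uses the distinct ends of each library as its total. The median bin holds 64 to 138 ends, which sets the counting precision of single bins. Alternatives tried were every read kept, no 1 kb bin left out, other shares and sizes of bins, well covered bins, equal depth, stricter peaks and each library left out. Regions named are the 8 highest sums, the 3 on each side of the limit, the 5 longest runs, the 2 highest and 2 lowest ratios of each pair, the 3 bins with most peaks per library, and the extreme chromosomes; steps, the chromosome 12 stretch and bins led by a single library were added after their values were seen. With 1 library per antibody no p-value is given. Genes and base composition of the bins, and sequences, were not analysed here, since no genome of this build was used.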

Additional observations from a re-analysis of the deposited data

Results flagged for a closer look

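Chromosome X lay outside the choice of bins and is reported because its reads entered no comparison. Of its 1637 non-empty bins, 13 (0.794%) had a sum at or above the lowest read-rich bin, against 10% of autosomal bins by construction. Its median sum was 52.6 CPM, against 101 on the autosomes, and 57.7% of its bins were at or below the upper limit of the read-poor bins. The number of X copies in these cells was not analysed here, and its part in this level was not tested.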

How the results depend on the processing

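Of 125 values recomputed under an alternative, 45 stayed within the counting interval (counts of bins, within 1.5 times). Another 79 moved out of it, up or down, without a change of direction, and 1 reversed. In each list below, 3 values are for TET2, OGT and H2B S112GlcNAc, and ratios are quotients of read-rich over other bins; causes were not tested. Counting error is small at this depth, so most of these moves are small.

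With every read kept, the fold of read-rich over read-poor bins was 5.63, 5.29 and 4.81, the level in the library left out 2.65, 2.45 and 2.42, OGT peaks 3.15-fold, near pairs 3.17, 5.63 and 1.37, and the ratios TET2 to OGT 1.05, TET2 to H2B S112GlcNAc 1.103 and OGT to H2B S112GlcNAc 1.05. With no 1 kb bin left out, these were 5.84, 5.49 and 5.02 for the fold, 2.78, 2.63 and 2.55 for the level, 1.56, 1.69 and 1.39 for near pairs, and 1.05 for both TET2 to OGT and OGT to H2B S112GlcNAc.

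With the top 5% of bins, the level was 2.84, 2.61 and 2.58, peaks 3.23-fold for TET2 and 2.88-fold for OGT, TET2 to H2B S112GlcNAc 1.11, OGT to H2B S112GlcNAc 1.03 and the share with a read-rich neighbour 75.7%. With the top 20% the level was 2.47, 2.2997 and 2.27, peaks 3.29-fold for TET2 and 2.51-fold for H2B S112GlcNAc, TET2 to H2B S112GlcNAc 1.09 and the neighbour share 89.9%. With 50 kb bins 4800 were chosen, of which 4009 lay in read-rich bins; the level was 2.698, 2.49 and 2.45, peaks 3.5011, 2.99 and 2.68-fold, TET2 to H2B S112GlcNAc 1.11 and OGT to H2B S112GlcNAc 1.03. Among bins with ends in 90% of kilobases 1319 were chosen, all of them among the read-rich bins. That overlap was fixed in advance, since only 23 read-rich bins fell short of this coverage. With this choice the level was 2.0996, 1.96 and 1.94, and peaks 2.18, 1.97 and 1.72-fold. The 3 ratios were 1.06, 1.09 and 1.03, and the neighbour share 77.9%. At equal depth the OGT level was 2.43, H2B S112GlcNAc peaks 2.49-fold and OGT to H2B S112GlcNAc 1.02.

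At the 8-fold limit peaks were 1.52, 1.92 and 0.844-fold, so the H2B S112GlcNAc excess reversed.

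The next 3 alternatives, and the run lengths, gene correlations and positions without chromosome 12, were chosen after seeing the data. Without chromosome 12 the fold was 5.35, 4.90 and 4.58, the level 2.56, 2.36 and 2.33 and TET2 to H2B S112GlcNAc 1.10. With local peaks left out the level was 2.58, 2.41 and 2.38, TET2 to H2B S112GlcNAc 1.09 and OGT to H2B S112GlcNAc 1.02. With bins chosen by the library not in the ratio, the 3 ratios were 1.08, 1.09 and 1.01.

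No paired analysis was possible because there was a single library per antibody. Genes and base composition of the bins were not run, because gene annotation of this build was not used here. Without an input, the antibody's part in the level was not tested, and kilobases that reads cannot be placed in count as empty.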
